A study of Mus musculus with 4 samples.

Results

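Vessel growth factors and their co-receptors were followed in cultured mouse pancreatic fibroblasts: the genes of the VEGF family (Vegfa, Vegfb, Vegfc, Figf, which is the older symbol of Vegfd, and Pgf), the angiopoietins Angpt1 and Angpt2, and the neuropilins Nrp1 and Nrp2. These 9 genes were taken by symbol from tables of 38921 gene intervals, and each symbol had 1 row. RNA came from fibroblasts cultured from the pancreas of wild type mice (2 libraries) and of KPC mice (2 libraries), all of mixed strain, grown in medium with fetal bovine serum and under no other stated treatment. KPC usually denotes a pancreatic cancer model whose Pdx1-driven Cre recombinase acts in the pancreatic epithelium rather than in fibroblasts. Neither the alleles nor the age, sex or number of the animals is stated in the labels. Libraries are called biological replicates there, and p-values therefore measure only the spread between these libraries.

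VEGF-A is the main signal for blood vessel growth and is induced when oxygen is low, and placental growth factor (Pgf) and VEGF-B bind the receptor Flt1 without binding Kdr. VEGF-C and VEGF-D are made as precursors, are cut by secreted proteases and act on lymphatic vessels through Flt4. Angiopoietin 1, usually made by mesenchymal cells, activates the endothelial receptor Tek, and angiopoietin 2, usually made by endothelial cells themselves, opposes it in many settings. Neuropilins are co-receptors for VEGFs and for the class 3 semaphorins. Stromal fibroblasts of many tissues secrete VEGF-A.

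The promoters of the most studied ligand and of the neuropilins are shown because the group levels of Nrp1 and Nrp2 lay apart in opposite directions. Group levels lay apart in 41.1% of all tested rows, and neither gene passed the test given below. Each runs 5′ to 3′ on the gene's strand, from 250 bases before to 50 bases after the RefSeq start (GRCm38.p6). Capitals mark the core of the hypoxia response element (ACGTG or GCGTG) and the GC box (GGGCGG), each searched on both strands, where neighbouring matches may overlap. Vegfa lies at chr17:46032328-46032627 on the minus strand, Nrp1 at chr8:128358823-128359122 and Nrp2 at chr1:62703067-62703366, both on the plus strand.
Vegfa: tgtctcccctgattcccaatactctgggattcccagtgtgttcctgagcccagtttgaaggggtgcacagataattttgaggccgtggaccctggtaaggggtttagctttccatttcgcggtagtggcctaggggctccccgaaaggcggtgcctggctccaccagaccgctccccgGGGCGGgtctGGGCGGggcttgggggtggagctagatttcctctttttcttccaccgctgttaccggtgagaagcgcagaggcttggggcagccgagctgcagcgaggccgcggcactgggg
Nrp1: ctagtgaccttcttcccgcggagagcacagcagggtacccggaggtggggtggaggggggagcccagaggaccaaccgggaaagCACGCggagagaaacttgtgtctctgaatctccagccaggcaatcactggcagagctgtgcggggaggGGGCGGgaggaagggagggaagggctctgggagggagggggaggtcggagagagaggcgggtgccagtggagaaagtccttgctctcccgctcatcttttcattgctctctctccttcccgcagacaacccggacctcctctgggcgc
Nrp2: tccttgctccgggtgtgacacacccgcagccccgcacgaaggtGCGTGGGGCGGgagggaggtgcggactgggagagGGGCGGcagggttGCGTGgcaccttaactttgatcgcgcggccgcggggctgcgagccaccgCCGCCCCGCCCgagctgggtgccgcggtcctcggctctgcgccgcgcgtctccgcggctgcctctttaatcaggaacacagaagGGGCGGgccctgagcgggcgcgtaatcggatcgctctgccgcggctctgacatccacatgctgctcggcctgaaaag
The Nrp2 window held 5 GC boxes and 2 hypoxia cores, the Nrp1 window 1 of each, and the Vegfa window 2 GC boxes and 0 hypoxia cores. Bases more than 250 before the start were not searched, so a core further upstream would not be counted. Of all 32851 promoters in the RefSeq table, 35.7% held at least 1 GC box and 43.8% at least 1 hypoxia core. The usual number of matches in windows of like base content was not measured. Among the 7 of the 9 genes with an entry, G and C made up 62.0% to 75.3% of the bases in 6, and 42.0% in Figf, which alone had a TATA box (TATAAA, found in 13.6% of all promoters); the median of all promoters was 52.7%. Angpt1 and Angpt2 were not matched. A match describes letters only and says nothing of a bound factor.

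The 4 libraries summed to between 22302141 (wild type 2) and 68312367 (KPC 2) counts, and 23046 rows were tested. Levels are given as CPM, read counts scaled to library size after TMM correction for library composition. The 11 fibroblast markers summed to 11669 and 10608 CPM across the wild type libraries and 10343 and 12227 CPM in the KPC libraries, mostly from Col1a1, Col1a2, Vim and Col3a1. Of the other markers of that list, Thy1 measured 89.3 to 216 CPM, Pdgfrb 69.1 to 194 CPM and Pdpn 41.8 to 232 CPM over the 4 libraries. Lum (0.171 to 7.34 CPM) and Fap (2.07 to 8.05 CPM) were the lowest. Wild type 1 stood apart in its endothelial genes: 14 markers summed to 1074 CPM there, while wild type 2 had 179 CPM and the KPC libraries 65.6 and 133 CPM. All 9 genes were tested in every comparison below. None passed the edgeR quasi-likelihood test at an adjusted p of 0.05, where 0% of all tested rows passed.

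Vegfa and Pgf were the most abundant ligand transcripts, and wild type 1 was the lowest library for both. Vegfa (chromosome 17, 46016993 to 46032377) measured 54.4 and 123 CPM in wild type 1 and 2 and 143 and 112 CPM in KPC 1 and 2. The groups overlapped, because wild type 2 lay between the KPC libraries. The means were 88.5 ± 48.2 and 128 ± 21.6 CPM (SD, n = 2 each), and the log2 fold change came to 0.53 ± 0.42 (SE; edgeR adjusted p = 0.764). The size of the difference rested on wild type 1, with 0.06 without that library and 1.23 without wild type 2 (edgeR adjusted p = 0.952 and 0.0931). In RNA from whole cultures, fewer cells of a type and less RNA per cell cannot be told apart.

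Pgf (chromosome 12, 85166639 to 85177296) encodes placental growth factor. It measured 43.7 and 152 CPM in the wild type libraries, then 101 and 61.3 CPM in the KPC libraries. Both KPC values lay between the wild type values. The log2 fold change was -0.26 ± 0.63 (SE; edgeR adjusted p = 0.940), and it turned to 0.90 without wild type 2 and was -0.90 without wild type 1. Within-group spread exceeded the difference between the groups, with a mean of 97.7 ± 76.5 CPM across the wild type libraries and 81.3 ± 28.4 CPM in the KPC libraries (SD, n = 2 each).

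**Figure D1:**
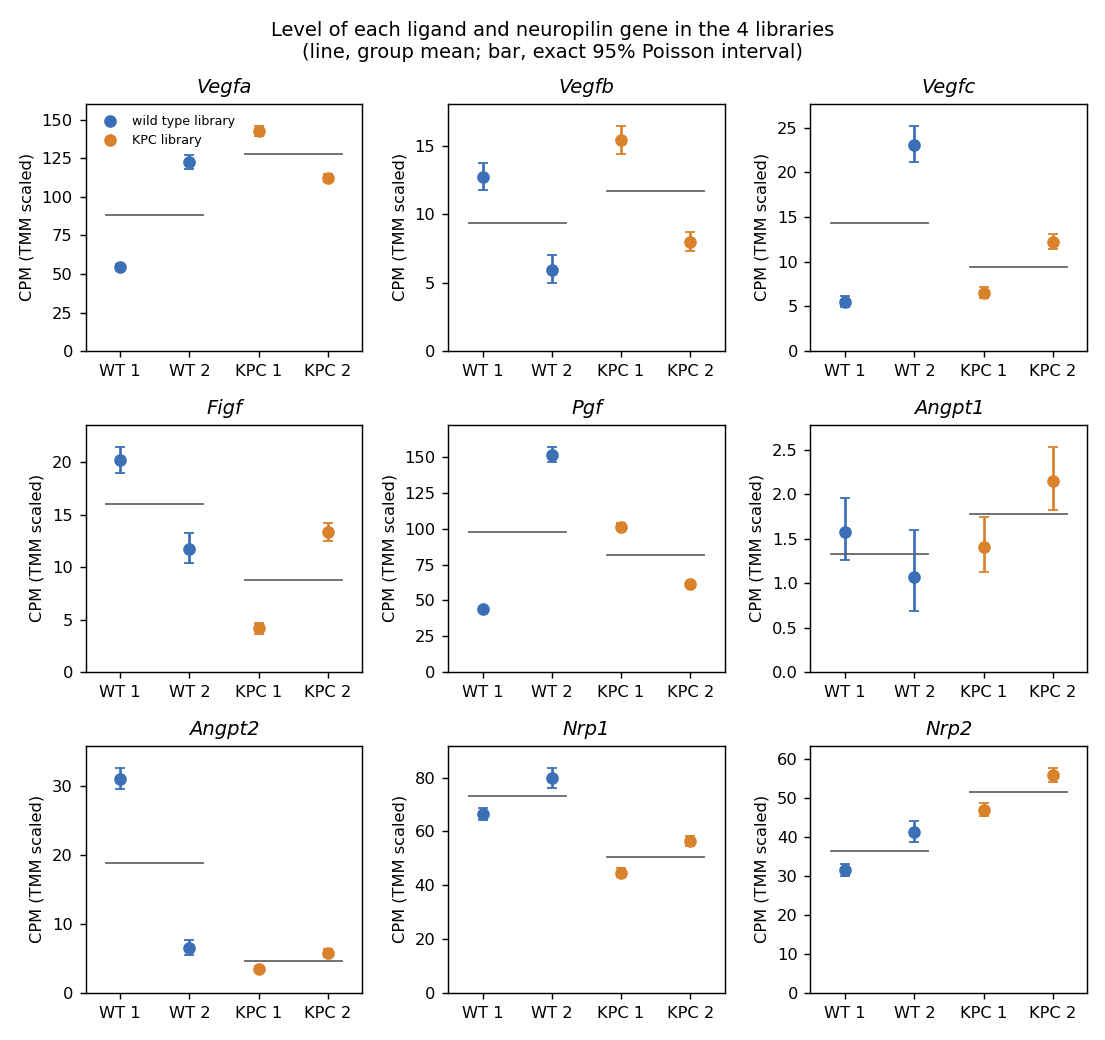
CPM after TMM scaling (y axis, linear from 0) in each library (x axis) for the 9 genes, with wild type libraries in blue and KPC libraries in orange; horizontal lines are group means and vertical bars exact 95% Poisson intervals, which cover counting error only. Groups separate for Angpt2, Nrp1 and Nrp2, as they do for 41.1% of all tested rows, and overlap in the other 6 panels. The wild type 1 value of Angpt2 (31.1 CPM) is far above the rest.

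Vegfb, whose product has a supporting role in vessel and fat tissue, was low in CPM, and its groups overlapped. Per kilobase of exon it ranked 3 among the 9 genes. Vegfb (chromosome 19, 6982473 to 6987651) measured 12.7 and 5.95 CPM across the wild type libraries and 15.4 and 7.99 CPM in the KPC libraries. In both groups replicate 1 was the higher library. Its log2 fold change was 0.32 ± 0.50 (SE; edgeR adjusted p = 0.901), and it was negative without wild type 2 (-0.12) or KPC 1 (-0.22).

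The lymphatic ligands differed in which libraries were high. Vegfc (chromosome 8, 54077532 to 54186454) measured 5.52 and 23.1 CPM across the wild type libraries and 6.53 and 12.2 CPM in the KPC libraries. Figf (chromosome X, 164373378 to 164402650) measured 20.2 and 11.8 CPM across the wild type libraries and 4.16 and 13.3 CPM in the KPC libraries. Wild type 1 was thus the lowest of the 4 libraries for Vegfc and the highest for Figf, and the groups overlapped for both. The log2 fold change was -0.60 ± 0.74 for Vegfc and -0.87 ± 0.62 for Figf (SE; edgeR adjusted p = 0.858 and 0.727). Without wild type 2 the Vegfc difference turned to 0.77, and without wild type 1 it was -1.30. The Figf difference was -0.25 without KPC 1, its lowest library, -0.42 without wild type 1, its highest, and -1.94 without KPC 2.

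Angiopoietin 2 had the smallest p of the 9 genes, and most of its difference lay in 1 wild type library. Angpt2 (chromosome 8, 18690263 to 18741562) measured 31.1 and 6.48 CPM across the wild type libraries and 3.43 and 5.81 CPM in the KPC libraries. Both KPC libraries were below both wild type libraries, but wild type 2 and KPC 2 were close: their exact 95% Poisson intervals, 5.47 to 7.63 and 5.25 to 6.41 CPM, overlapped. The log2 fold change was -2.03 ± 0.79 (SE; edgeR adjusted p = 0.579), and DESeq2 gave an adjusted p of 0.139. Without wild type 1 it was -0.49 (edgeR adjusted p = 0.762), in a comparison that called 0% of rows higher and 0.0209% lower. Without wild type 2, which leaves wild type 1 as the sole wild type library and assumes that it varies like the KPC libraries, it was -2.75 and passed (edgeR adjusted p = 0.0276), in a comparison that called 1.69% of rows lower and 1.79% higher in KPC.

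Angpt2 lies wholly inside the interval of Mcph1, a gene of the other strand with a role in chromosome condensation, and the counts showed no strand. Of the Mcph1 counts, the Angpt2 interval held 60.3% for wild type 1 and 26.1% for wild type 2, as well as 13.8% for KPC 1 and 23.3% for KPC 2, and that interval makes up 24.7% of the Mcph1 row. The remaining Mcph1 counts came to 20.5 and 18.4 CPM across the wild type libraries and to 21.4 and 19.1 CPM in the KPC libraries. The rest of the Mcph1 row thus held nearly level across the 4 libraries, and the excess of wild type 1 lay in the Angpt2 interval. Genes of endothelial cells moved with Angpt2: 13 of the 14 endothelial markers were highest in wild type 1, where 31.0% of all tested rows were, and no marker was at 0 in any library. Robo4, Sox17 and Emcn, the 3 with the smallest p, measured 8.85, 3.86 and 248 CPM in wild type 1, 1.07, 0.403 and 4.20 CPM in wild type 2, and no more than 0.339, 0.192 and 2.21 CPM in the KPC libraries. All 6 tested Schwann cell markers were highest in wild type 1 as well. Of the 9 pericyte and smooth muscle markers, 3 were highest and 6 lowest there. The part of all these markers in the Angpt2 difference was not tested.

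**Figure D2:**
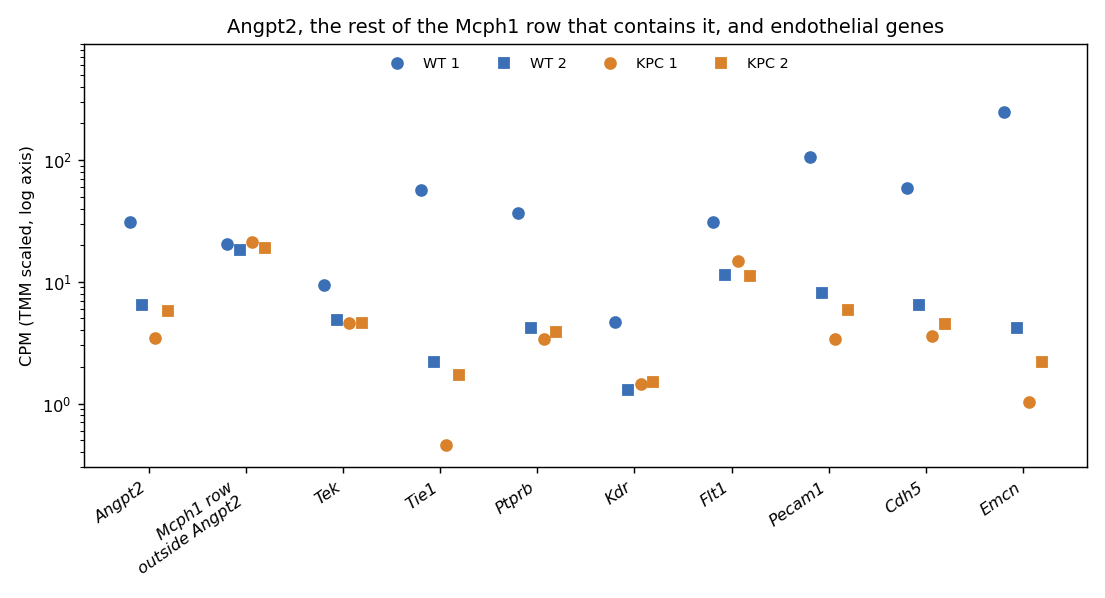
CPM on a log axis for Angpt2, for the Mcph1 row without the counts of the Angpt2 interval, for the receptors Tek, Tie1, Kdr and Flt1, for Ptprb and for the endothelial genes Pecam1, Cdh5 and Emcn; blue marks wild type and orange KPC, circles replicate 1 and squares replicate 2. Wild type 1 is the highest library for every gene shown except the rest of the Mcph1 row, whose 4 values run from 18.4 to 21.4 CPM. Genes not shown include the VEGF receptor Flt4, highest in KPC 1 (16.1 CPM), and the endothelial marker Ecscr, highest in KPC 2 (38.4 CPM). Schwann cell markers are not shown either, and all 6 tested were highest in wild type 1.

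Rows whose pattern was most like that of Angpt2 were sought among rows with a mean of at least 5 CPM, by Euclidean distance of centred log2 values over the 4 libraries. The nearest were Gm12913 (distance 0.202), Trabd2b (0.213), Vwa3a (0.263) and Fam163b (0.322). Trabd2b measured 46.4 and 8.14 CPM across the wild type libraries and 4.32 and 8.11 CPM in the KPC libraries, spread over 3703 to 10586 bases. In Fam163b the counts covered 175 to 377 of 32111 bases and in Vwa3a 898 to 1708 of 66185 bases, so those rows measured short stretches of the named genes.

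Angiopoietin 1 was the scarcest of the 9 transcripts. Angpt1 (chromosome 15, 42424727 to 42676977) had 83 and 24 counts in wild type and 83 and 146 counts in KPC. These correspond to 1.58 and 1.07 CPM (exact 95% Poisson intervals 1.26 to 1.96 and 0.688 to 1.60) and to 1.41 and 2.15 CPM (1.12 to 1.75 and 1.82 to 2.53). KPC 1 lay between the wild type values and KPC 2 above both, and the log2 fold change was 0.41 ± 0.38 (SE; edgeR adjusted p = 0.800). It was 0.07 without KPC 2 and 0.73 without wild type 1. The antisense gene Gm17473 overlaps 717 bases of Angpt1, and its whole row had 10 and 0 counts in wild type and 6 and 6 in KPC.

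The neuropilins separated the groups in opposite directions, by small amounts, and neither passed the test. Nrp1 (chromosome 8, 128359073 to 128505462), the co-receptor of arterial endothelium and of semaphorin 3A, measured 66.4 and 79.7 CPM across the wild type libraries and 44.7 and 56.3 CPM in the KPC libraries. Nrp2 (chromosome 1, 62703285 to 62818695), the co-receptor of lymphatic endothelium and of semaphorin 3F, measured 31.5 and 41.3 CPM across the wild type libraries and 47.0 and 55.8 CPM in the KPC libraries. Every KPC library was below every wild type library for Nrp1 and above every one for Nrp2. Of all tested rows, 20.5% were lower and 20.6% higher in this way. The log2 fold change was -0.53 ± 0.21 for Nrp1 and 0.50 ± 0.22 for Nrp2 (SE; edgeR adjusted p = 0.580 and 0.606). Leaving out each library in turn gave -0.71 to -0.37 for Nrp1 and 0.32 to 0.71 for Nrp2, with the sign kept each time. On the other strand, Nrp2 contains the annotated antisense gene Gm29083, and on its own strand Gm37121. Reads of either could not be told apart from those of Nrp2. Nrp1 contains the microRNA gene Mir1903, whose row had 10 and 7 counts in wild type and 21 and 13 in KPC.

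Proportions within a library do not depend on scaling between libraries; they were chosen after the values were seen. Nrp2 had 0.474 and 0.518 counts per Nrp1 count in the wild type libraries and 1.05 and 0.991 in the KPC libraries. The replicates of each group were thus close, and the log2 ratio was higher in KPC by 1.04 (SD within groups 0.09 in wild type and 0.06 in KPC). Angpt1 had 0.0507 and 0.166 counts per Angpt2 count in wild type and 0.411 and 0.371 in KPC, a log2 difference of 2.09, which was 1.24 without wild type 1 and 2.94 without wild type 2. Wild type 1 was the lowest library here too, and the SD of the log2 ratio was 1.21 in wild type and 0.11 in KPC. Vegfa had 1.25 and 0.807 counts per Pgf count in wild type and 1.41 and 1.83 in KPC. Groups did not overlap in these 3 ratios, and the two-sided exact permutation p was 0.333 for each, the smallest that 2 libraries against 2 can give. For Nrp2 to Nrp1 the separation follows from that of both genes given above. The share of gene pairs in general whose ratio separates the groups was not measured. In 2 further ratios, Vegfc to Figf and Vegfa to Vegfb, the groups overlapped (exact permutation p = 1). This exact test cannot reach 0.05 with 2 libraries in each group, before or after adjustment over the 5 ratios.

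**Figure D3:**
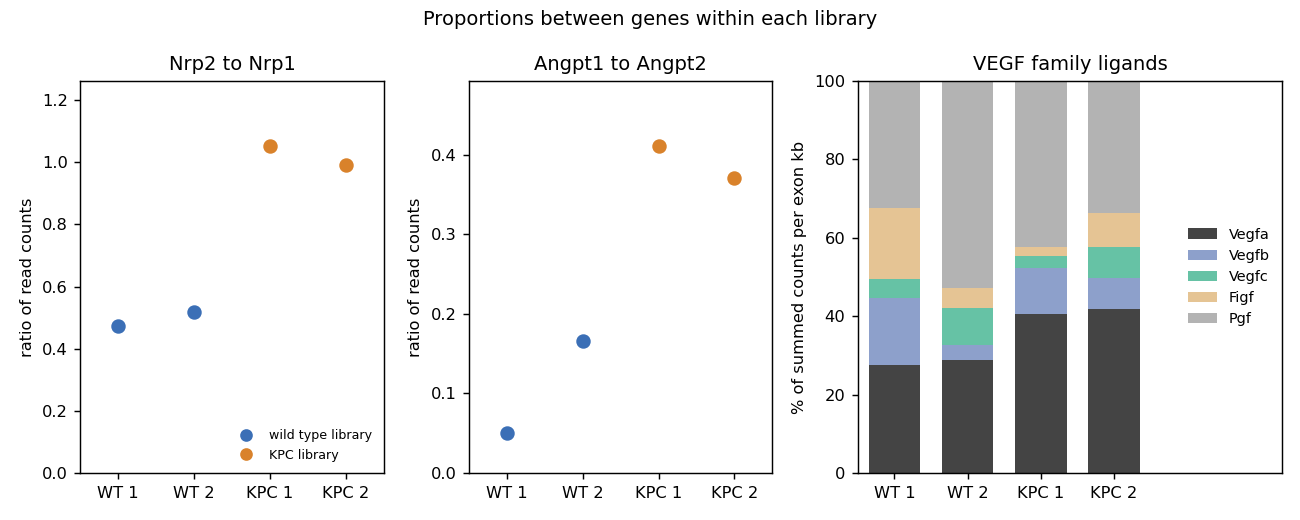
Ratios of read counts within each library for Nrp2 to Nrp1 and for Angpt1 to Angpt2 (y axes linear from 0), and the share of each VEGF family gene in the family's summed counts per kilobase of exon (stacked bars, percent). The Nrp2 to Nrp1 ratio is 0.474 and 0.518 in wild type and 1.05 and 0.991 in KPC. Vegfa makes up 27.4% and 28.9% of the family in wild type and 40.5% and 41.7% in KPC. This share was not tested, and the CPM of Vegfa overlapped between the groups.

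Per kilobase of annotated exon, the makeup of the VEGF family was compared within each library. Vegfa made up 27.4% and 28.9% of the family's counts per kilobase in wild type and 40.5% and 41.7% in KPC, so the groups did not overlap. The CPM of Vegfa itself did overlap. Like the ratios, these shares were chosen after the values were seen. They were not tested, and how often such shares separate the groups was not measured. Pgf, the largest share in both wild type libraries and in KPC 1, made up 32.5% and 52.9% in wild type and 42.5% and 33.6% in KPC. Figf had 18.1% in wild type 1, and 2.10% to 8.82% in the other 3 libraries. Vegfb ranged from 3.75% to 17.1% and Vegfc from 3.24% to 9.53% across the 4 libraries, with overlap between the groups.

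Levels of the 9 genes were ordered by CPM per kilobase of exon, as the mean over the 4 libraries of both groups with its SD (n = 4). Pgf (30.8 ± 16.5) and Vegfa (25.2 ± 8.85) led. Vegfb (6.56 ± 2.70), Nrp1 (6.31 ± 1.52), Figf (5.14 ± 2.73), Vegfc (4.83 ± 3.29), Nrp2 (3.71 ± 0.862) and Angpt2 (3.18 ± 3.53) followed, and Angpt1 (0.299 ± 0.0867) was last. Of the neighbours in this order, only Vegfa and Vegfb differed by more than the SD of each. Angpt1 was still the lowest in each single library, where Angpt2 was at 0.931 CPM per kilobase or more and Angpt1 at 0.414 or less. The order differed between the group means, but through single libraries. Mean Pgf was above Vegfa in wild type (33.7 and 20.6) but not in KPC (28.0 and 29.8). In KPC 1 Pgf was also above Vegfa (34.9 and 33.3), and in KPC 2 below it (21.1 and 26.2). Mean Angpt2 was above Nrp2 in wild type (5.10 and 3.07) but not in KPC (1.25 and 4.34). That came from wild type 1 (8.44 and 2.66), as Angpt2 was below Nrp2 in wild type 2 (1.76 and 3.49). Per kilobase of the whole deposited interval, introns included, Pgf, Vegfa, Vegfb and Angpt1 kept their places and the other 5 moved.

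Across the 9 genes, 4 log2 fold changes were positive and 5 negative, where 48.8% of all tested rows were positive and 51.2% negative. Their median was -0.26, beside -0.01 over all tested rows. The groups did not overlap in 3 of 9, 1 higher and 2 lower in KPC, where 41.1% of all tested rows did not overlap (20.6% higher and 20.5% lower). The share among the 9 was thus no greater than the background. At an unadjusted edgeR p under 0.05 there were 0 of 9, where 8.67% of all rows were (4.73% higher and 3.94% lower), and DESeq2 and limma voom called 0 of 9 as well, where DESeq2 called 1.44% of all rows higher and 1.28% lower and voom 0% in either direction. Median and signs depended on single libraries: without wild type 2 the median was 0.18.

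**Figure D4:**
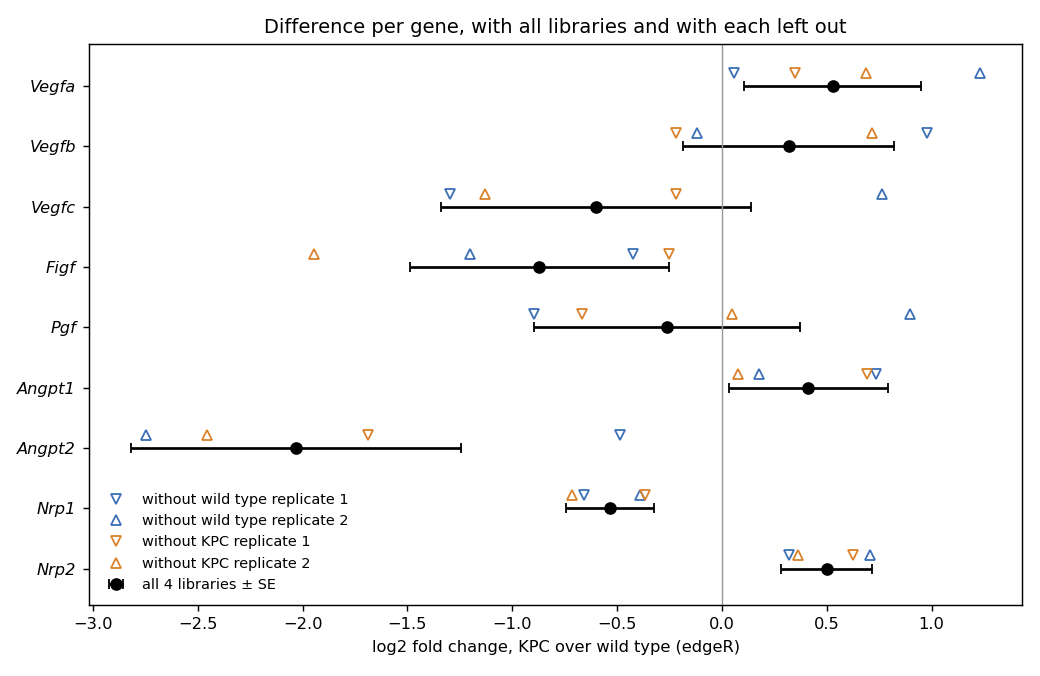
Log2 fold change of KPC over wild type from edgeR (x axis) for each gene (y axis): black points and bars are the fit to all 4 libraries with its SE, and open triangles the fit with 1 library left out (blue, wild type; orange, KPC; pointing down, replicate 1; pointing up, replicate 2). Triangles stay on 1 side of 0 for Vegfa, Figf, Angpt1, Angpt2, Nrp1 and Nrp2 and lie on both sides for Vegfb, Vegfc and Pgf.

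Transcripts of the receptors of these ligands were present in every library. Of the 3 VEGF receptors (median log2 fold change -0.70), Kdr, the main signalling receptor for VEGF-A, measured 4.64 and 1.30 CPM across the wild type libraries and 1.44 and 1.50 CPM in the KPC libraries. Values joined by versus are those of wild type 1 and 2, followed by those of KPC 1 and 2. Flt1, which binds VEGF-A, VEGF-B and placental growth factor, measured 30.9 and 11.4 versus 14.8 and 11.3 CPM. Flt4, the receptor of the lymphatic ligands, measured 12.4 and 7.02 versus 16.1 and 4.98 CPM. Groups overlapped for all 3, and without wild type 1 the median was 0.20.

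Among the 5 angiopoietin receptors and partners (median -0.65) the receptor gene Tek measured 9.45 and 4.87 CPM across the wild type libraries and 4.59 CPM in each KPC library. Tie1, a receptor that pairs with Tek, measured 56.3 and 2.19 versus 0.459 and 1.73 CPM, and Ptprb, an endothelial phosphatase that restrains Tek, 36.8 and 4.20 versus 3.38 and 3.88 CPM. These 3 of the 5 were lower in both KPC libraries, where 20.5% of all tested rows were, with the gap mainly in wild type 1. Their edgeR adjusted p values were 0.669, 0.545 and 0.583. The groups overlapped for Svep1 and Angpt4, the rest of the list (log2 fold change -0.06 and 0.05). Angpt4, itself an angiopoietin gene rather than a receptor gene, measured 7.13 and 30.4 versus 10.8 and 27.8 CPM. Endothelial markers differed between the same libraries, as given above for Angpt2.

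Genes that release the lymphatic ligands from their precursors were the one list of the 8 pathway lists with a single sign. All 10 genes of VEGF-C and VEGF-D processing had a positive log2 fold change (median 0.41, and 0.83 without wild type 2), 5 of 10 were higher in both KPC libraries, a share that was 20.6% among all tested rows, and 5 had an unadjusted edgeR p under 0.05, where 4.73% did. None passed over all rows, and DESeq2 called 2, Plat and Ctsd. Plat, the tissue plasminogen activator, measured 17.0 and 15.6 versus 43.0 and 29.3 CPM. Adamts3, the protease that cuts pro-VEGF-C, measured 52.0 and 50.8 versus 78.8 and 76.1 CPM. The lysosomal protease gene Ctsd measured 833 and 1172 versus 1973 and 2156 CPM, and macrophages are rich in it. The 12 macrophage markers, all higher in both KPC libraries, summed to 71.5 and 258 CPM across the wild type libraries and 1002 and 2125 CPM in the KPC libraries; their part in this list was not tested.

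Hypoxia genes, which include known partners and co-targets of Vegfa in the oxygen response, were positive in 13 of 18 and 6 of 9 cases, where 48.8% of all tested rows were. In the list of 9 oxygen sensing genes (median 0.25, and 0.13 without KPC 1), 5 were higher and 1 lower in both KPC libraries, beside 20.6% and 20.5% of all tested rows. Hif1a, the oxygen-regulated transcription factor that induces Vegfa, measured 44.4 and 94.1 versus 202 and 159 CPM, with a log2 fold change of 1.38 ± 0.40 (SE; edgeR adjusted p = 0.514). The oxygen sensor genes Egln1 and Egln3 measured 42.3 and 55.1 versus 74.9 and 64.8 CPM and 9.25 and 21.3 versus 32.8 and 24.2 CPM. Among the 18 hypoxia-induced genes (median 0.34, 13 positive), 8 were higher and 1 lower in both KPC libraries (20.6% and 20.5% among all tested rows). An unadjusted edgeR p under 0.05 was found for 4, all higher (4.73% among all rows), with Pdk1, Pgk1 and Ldha the smallest. The median was 0.64 without wild type 2 and 0.21 without wild type 1. Pgk1, a glycolytic kinase gene, measured 431 and 526 versus 829 and 656 CPM. Pdk1 was the member with the smallest p, at 8.41 and 9.66 versus 25.4 and 17.1 CPM, and Ldha measured 572 and 743 versus 1043 and 961 CPM. Wild type 1 was the lowest library for 12 of the 18, where 28.8% of all tested rows were, as it was for Vegfa.

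Semaphorins, plexins and other secreted regulators of vessels showed no common direction. Of 12 plexin and class 3 semaphorin genes (median -0.11), 5 were positive and 7 negative, and without wild type 1 the median was 0.50. Sema3c, a ligand of both neuropilins, measured 4.39 and 5.86 CPM across the wild type libraries and 11.2 and 10.1 CPM in the KPC libraries (log2 fold change 1.06 ± 0.25 SE, edgeR adjusted p = 0.412, DESeq2 adjusted p = 0.0367). Sema3f, a ligand of Nrp2, measured 32.7 and 2.55 versus 2.62 and 4.03 CPM, and the semaphorin receptor gene Plxna2 13.3 and 4.61 versus 4.83 and 3.51 CPM, both highest in wild type 1. Of the 6 angiopoietin-like genes, 5 were tested (median -0.06). Angptl7 measured 0.171 and 1.83 versus 0.102 and 0.221 CPM, Angptl2 45.6 and 99.2 versus 110 and 95.2 CPM, and Angptl6 3.79 and 2.55 versus 3.57 and 4.10 CPM. None of these 3 separated the groups.

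Among 20 other secreted angiogenesis regulators (median 0.11), 3 were higher and 3 lower in both KPC libraries, below the 20.6% and 20.5% of all tested rows. The median was -0.11 without wild type 1 and -0.02 without KPC 2. Pdgfb, the endothelial signal that recruits pericytes, measured 15.0 and 7.83 CPM across the wild type libraries and 3.81 and 3.92 CPM in the KPC libraries (log2 fold change -1.57 ± 0.37 SE, edgeR adjusted p = 0.412, DESeq2 adjusted p = 0.0136). Spp1, the osteopontin gene, measured 29.7 and 310 versus 860 and 1050 CPM, and Hgf, the hepatocyte growth factor gene, 2.93 and 2.06 versus 0.867 and 1.64 CPM. Across all 8 pathway lists 0 genes passed in edgeR over all rows and DESeq2 called 5, Sema3c, Plat, Ctsd and Pdk1 higher and Pdgfb lower, where it called 1.44% of all rows higher and 1.28% lower. Without wild type 2, edgeR called 9, with Ccbe1, Plau, Hif1a, Spp1 and Mdk higher (1.79% of all rows) and Tie1, Ptprb, Sema3f and Pdgfb lower (1.69%).

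**Figure D5:**
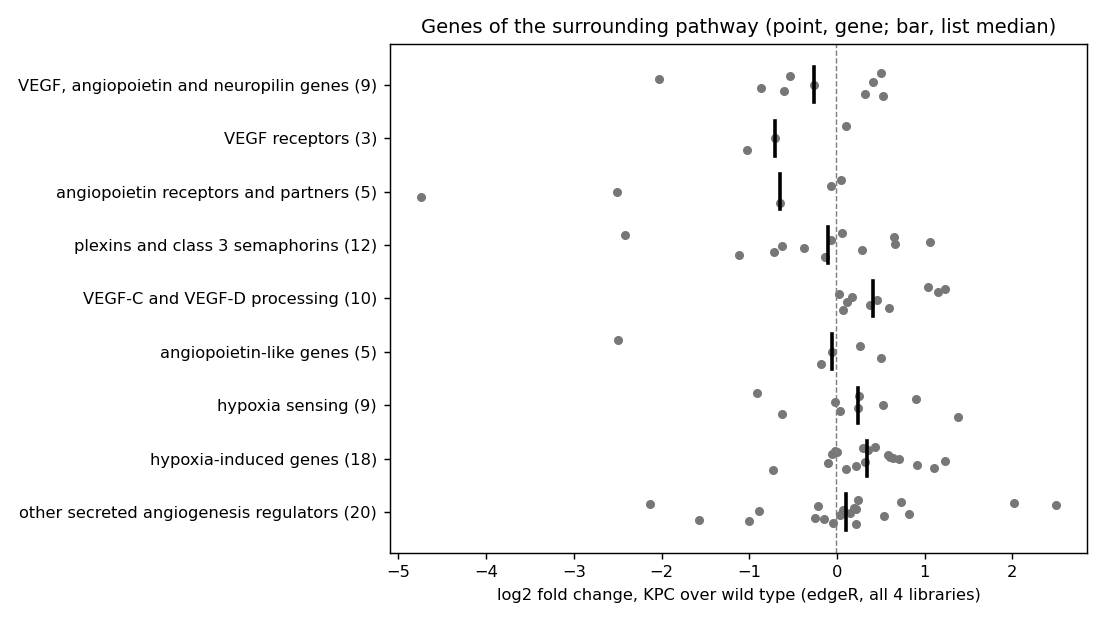
Log2 fold change of KPC over wild type (x axis, edgeR with all 4 libraries) for the 9 genes and for 8 lists of genes around them (y axis, number of tested genes in brackets); points are genes, black bars list medians and the dashed line the median of all tested rows. Medians run from -0.70 for the VEGF receptors to 0.41 for VEGF-C and VEGF-D processing.

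Other cell types that such cultures can hold were followed by their markers, as summed CPM, the wild type libraries first and then the KPC libraries, each by replicate number. The 5 lymphatic endothelial markers summed to 42.0, 41.5, 41.5 and 41.6 CPM, nearly all of it Reln, and Prox1, the lymphatic regulator gene, reached 2.85 CPM in wild type 1 and no more than 0.581 CPM in any other library. The 9 pericyte and smooth muscle markers (median 0.26) summed to 523, 1275, 2357 and 1452 CPM, and Cspg4, a pericyte surface gene, measured 102 and 31.7 versus 14.3 and 15.1 CPM. The next smallest p values of that list belonged to genes higher in both KPC libraries, Myh11 at 48.3 and 99.0 versus 210 and 148 CPM and Kcnj8 at 0 and 0.358 versus 1.38 and 1.00 CPM, and 6 of the 9 were positive. The 10 epithelial markers (median 1.86) summed to 32.3, 428, 1185 and 435 CPM and were all lowest in wild type 1, which was also the lowest library for Vegfa and Pgf. The 8 islet endocrine markers (median -8.43) summed to 3.92, 955, 1.80 and 2.48 CPM, highest in wild type 2, the library with the most Pgf and Vegfc. The 7 Schwann cell markers (median -4.67) summed to 30.0, 6.40, 3.30 and 3.42 CPM. Counts of 0 were found for Kcnj8 in wild type 1, for Ccl21a in wild type 2, for Ins1, Gcg and Foxd3 in KPC 1, and for Sst in all libraries but wild type 2. Median log2 fold changes were -3.31 for the endothelial, -0.53 for the lymphatic, 2.99 for the macrophage and 0.07 for the fibroblast markers. Without wild type 1 the medians were -1.05 for the endothelial, -0.11 for the lymphatic, -0.76 for the Schwann cell and 0.92 for the epithelial markers. Without wild type 2 they were -0.81 for the islet, 5.70 for the epithelial, 0.68 for the pericyte and 0.57 for the fibroblast markers, and with a filter of 1 CPM the lymphatic median was 0.03. The part of these cell types in the ligand values was not tested.

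Coverage of the intervals was also deposited, as the number of bases with a read. Vegfa reads covered 8116 and 5738 bases in wild type and 8141 and 8367 bases in KPC, more than its 4285 annotated exon bases, so part of the counts lay outside exons. For Pgf, with 2903 exon bases, wild type 1 covered 4874 bases with 2295 counts, while wild type 2, KPC 1 and KPC 2 covered 2252, 3172 and 2991 bases with 3394, 5964 and 4155 counts. The library with the fewest Pgf counts therefore covered the most bases, at least 1971 of them outside annotated exons. Angpt2 covered 5215 bases in wild type 1 and 2095, 2703 and 3367 bases in the others, beside 3690 exon bases. Whether reads outside exons took part in the differences was not tested.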

How the data were processed

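The protocols in the labels describe poly-A libraries read from 1 end. Tools listed in the submitters' processing notes are TopHat2 2.0.3, bedtools, SAMtools 0.1.18 and FastQC 0.10.1, with the mm10/GRCm38 build; which tool made the counts is not given in the sources used here. Per sample the authors deposited a read count for each gene interval, with the number of covered bases and the fraction covered. That these are raw counts over whole intervals, introns included and without strand, was read from the values and positions. Deposited starts equalled the GENCODE M21 start for 5 of the 9 genes and are printed as deposited. Totals are sums over rows that can overlap.

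The main test was that of edgeR 4.0.16 under R 4.3.3 (filterByExpr with a minimum count of 10, TMM, two-sided quasi-likelihood test, Benjamini-Hochberg over 23046 rows). SE is the unshrunk log2 fold change over the root of F. Exon lengths are unions of GENCODE M21 exons, and Poisson intervals and floors cover counting error only. Libraries of a group differed beyond sampling noise (chi-square per degree of freedom 115 in wild type and 62.6 in KPC). The 9 genes and the 16 lists (159 genes, all but 4 tested) were chosen with earlier results of these data known. Genes named are the 9, up to 3 of smallest p per list and overlapping genes. The 4 rows nearest to the gene of smallest p (log2 of CPM + 0.1) are named too. Some further genes are named to show the rest of a list, and of the marker lists some are given by sums only. Alternatives were other scaling factors and filters, DESeq2 1.42.0, limma 3.58.1 voom, leaving out each library, and a block on replicate number. Scripts were tested on simulated data. Figures used matplotlib 3.10.9.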

Additional observations from a re-analysis of the deposited data

How the results depend on the processing

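With all 4 libraries, the 9 genes kept the sign of their difference and stayed short of the threshold under RLE, upper quartile and no composition factors, both other filters, DESeq2, limma voom and the replicate block, except that Pgf was at 0.0025 with voom. Leaving out each library in turn gave log2 fold changes from -0.22 to 0.98 for Vegfb, from -1.30 to 0.77 for Vegfc, from -0.90 to 0.90 for Pgf and from -2.75 to -0.49 for Angpt2, the last passing without wild type 2 alone. The number of the 9 genes that passed ran from 0 to 1, that of the pathway lists from 0 to 9 and that of all rows from 0 to 835 (5 without wild type 1, 835 without wild type 2). DESeq2 called 627 rows, 5 of them in the pathway lists. Medians of the marker and pathway lists moved by more than the spread between replicates in 26 of 192 cases. Replicate numbers do not state a shared animal or day: deviations of same-numbered libraries correlated at 0.14, and with the replicate block the log2 fold changes were 0.63 for Vegfa, -0.34 for Vegfc, -0.05 for Pgf, -1.69 for Angpt2, -0.54 for Nrp1 and 0.51 for Nrp2 with 0 rows called. Vegfc was at -0.17 with voom. Depth limited Angpt1 most, with 24 counts in wild type 2.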
